A study of Mus musculus with 12 samples.

Results

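The nuclear pore is a large ring of proteins, the nucleoporins, that spans the nuclear envelope and through which proteins and RNA pass between nucleus and cytoplasm. Its parts include an outer ring built from the Y complex, an inner ring, a channel lined with flexible repeats, a membrane anchor, filaments on the cytoplasmic side and a basket on the nuclear side. Cargo is carried through the channel by transport receptors. Importins bring cargo in, many of them through the adaptor importin alpha and its partner importin beta, exportins take cargo out, and the small GTPase Ran gives the traffic its direction. When a resting T cell is activated it enlarges, makes new ribosomes and copies its DNA, and all of these steps need proteins brought into the nucleus.

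The genes described here are the mouse nucleoporin genes named Nup with a number and the receptor genes named Kpna, Kpnb, Ipo, Tnpo or Xpo, taken by symbol from the annotated array rows that carry exactly 1 gene symbol. They numbered 41 of the 22180 genes measured, of which 18 encode pore proteins and 23 encode transport receptors. Where a gene had several rows, the row with the highest mean was used. The rule itself uses no measured value beyond that choice of row. The 18 pore genes were 5 of the Y complex (Nup37, Nup43, Nup107, Nup133, Nup160), 4 of the inner ring (Nup93, Nup155, Nup188, Nup205), 2 of the central channel (Nup54, Nup98), 1 of the membrane (Nup210), 2 of the cytoplasmic side (Nup88, Nup214), 2 of the nuclear basket (Nup50, Nup153) and 2 paralogs (Nup62cl, Nup210l). The 23 receptor genes were 6 of importin alpha (Kpna1, Kpna2, Kpna3, Kpna4, Kpna6, Kpna7), 11 import receptors of the importin beta family (Kpnb1, Ipo4, Ipo5, Ipo7, Ipo8, Ipo9, Ipo11, Ipo13, Tnpo1, Tnpo2, Tnpo3) and 6 exportins (Xpo1, Xpo4, Xpo5, Xpo6, Xpo7, Xpot). Ipo13 is counted with the import receptors although it also carries cargo out.

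RNA was measured on 12 GeneChip Mouse Gene 2.0 ST arrays from central regulatory T cells (cTreg cells). They were sorted as YFP+ CD4+ cells with low CD44 from spleen and peripheral lymph nodes of Foxp3-YFP+ transgenic mice backcrossed to C57BL/6. The methods of the study define cTreg cells by high CD62L as well. One group of 3 arrays held unstimulated cells taken at 0 h, which the labels also give as treated with DMSO. The other groups, also of 3 arrays each, held cells stimulated for 20 h with antibodies to CD3 and CD28 together with recombinant IL-2, along with the vehicle DMSO, Torin 1 at 50 nM or PP242 at 500 nM. The 2 inhibitors block the kinase mTOR at its ATP site and were used at unequal doses. None of the groups spent 20 h in culture unstimulated, so the difference between activated and unstimulated cells cannot be told apart from that of time in culture with IL-2. The arrays of a group are described as replicates, which the methods of the study call biological triplicates. The labels do not give the age of the mice, and the methods give only a general range for the study. Whether cells of several mice were pooled is not given in the labels either. The p values therefore measure the spread between these samples.

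The deposited values are log2 expression after robust multichip averaging (RMA), with array medians from 4.95 to 5.08. All 12 arrays were fitted together with limma, and p values were adjusted over the 22180 genes by the Benjamini-Hochberg method. A gene was called higher or lower where the adjusted p was under 0.05. Changes are differences between log2 group means of 3 arrays and are given with their SE (standard error). A gene is termed dim where its mean lies under 4.65, the 40th percentile of gene means, and Nup188, Nup62cl and Kpna7 were dim in all 4 groups. Of 8 genes fixed as markers of the sorted cells, 7 were measured and none was dim. These markers moved in both directions on activation. Foxp3, the transcription factor that defines regulatory T cells, had a mean of 11.96 in unstimulated cells and 11.35 with DMSO (-0.61, adjusted p = 0.000163). Ctla4 was also lower (-0.53, adjusted p = 0.0012). Cd4 (0.46, adjusted p = 0.00565) and Cd3e (0.48, adjusted p = 0.00287) were higher, and Il2ra, Ikzf2 and Ccr7 were not called. Foxp3 (mean 11.65, adjusted p = 0.0302) and Ctla4 (mean 9.73, adjusted p = 0.0308) were higher with PP242 than with DMSO. With Torin 1 against DMSO neither was called (adjusted p = 0.066 and 0.0692). Among the markers of other cells, Cd68 of macrophages (7.41 unstimulated, 6.65 with DMSO) and Itga2b of platelets (6.49 and 5.84) were lower in activated cells, and both were higher with PP242 than with DMSO, Itga2b with Torin 1 as well. Cd79b of B cells (-0.55, adjusted p = 0.0124) and Ncr1 of NK cells (-0.42, adjusted p = 0.00478) were also lower on activation, and Ms4a1 of B cells was higher (0.44, adjusted p = 0.0483), with Ncr1 and Ms4a1 dim in all groups. Ms4a1 was lower with Torin 1 (mean 3.75) than with DMSO (mean 4.32, adjusted p = 0.0311). The signals of each list of markers were also summed on the linear scale and then taken to log2, so the brightest gene weighs most. For the 4 macrophage and monocyte markers this sum ran from 7.97 to 8.15 in unstimulated cells and 7.35 to 7.82 with DMSO. It ran from 7.69 to 7.97 with Torin 1 and 7.9 to 7.99 with PP242. For the 3 platelet markers measured it ran from 6.87 to 7.09, 6.41 to 6.53, 6.79 to 6.85 and 6.81 to 6.9 in the same order, and Pf4 and Ppbp, the defining genes of platelets, were dim in every group. The sum of 3 B cell markers ran from 6.73 to 6.91, 6.47 to 6.62, 6.35 to 6.52 and 6.31 to 6.61 in the same order. That of 4 CD8 and NK cell markers ran from 8.25 to 8.5, 8.01 to 8.15, 7.76 to 8.03 and 7.7 to 7.98. Cd8b1 was the brightest of these 4, with means of 8.08 unstimulated, 7.68 with DMSO, 7.4 with Torin 1 and 7.42 with PP242. The sum of 4 dendritic cell markers ran from 7.04 to 7.08, 6.74 to 6.89, 6.8 to 7.11 and 6.91 to 7.09. These 3 sums were also lower with DMSO than in unstimulated cells without overlap, while that of 4 neutrophil markers overlapped. Whether these cells take part in the changes of the transport genes was not tested. In bulk RNA, fewer cells of a type and less RNA per cell cannot be told apart.

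**Figure D1:**
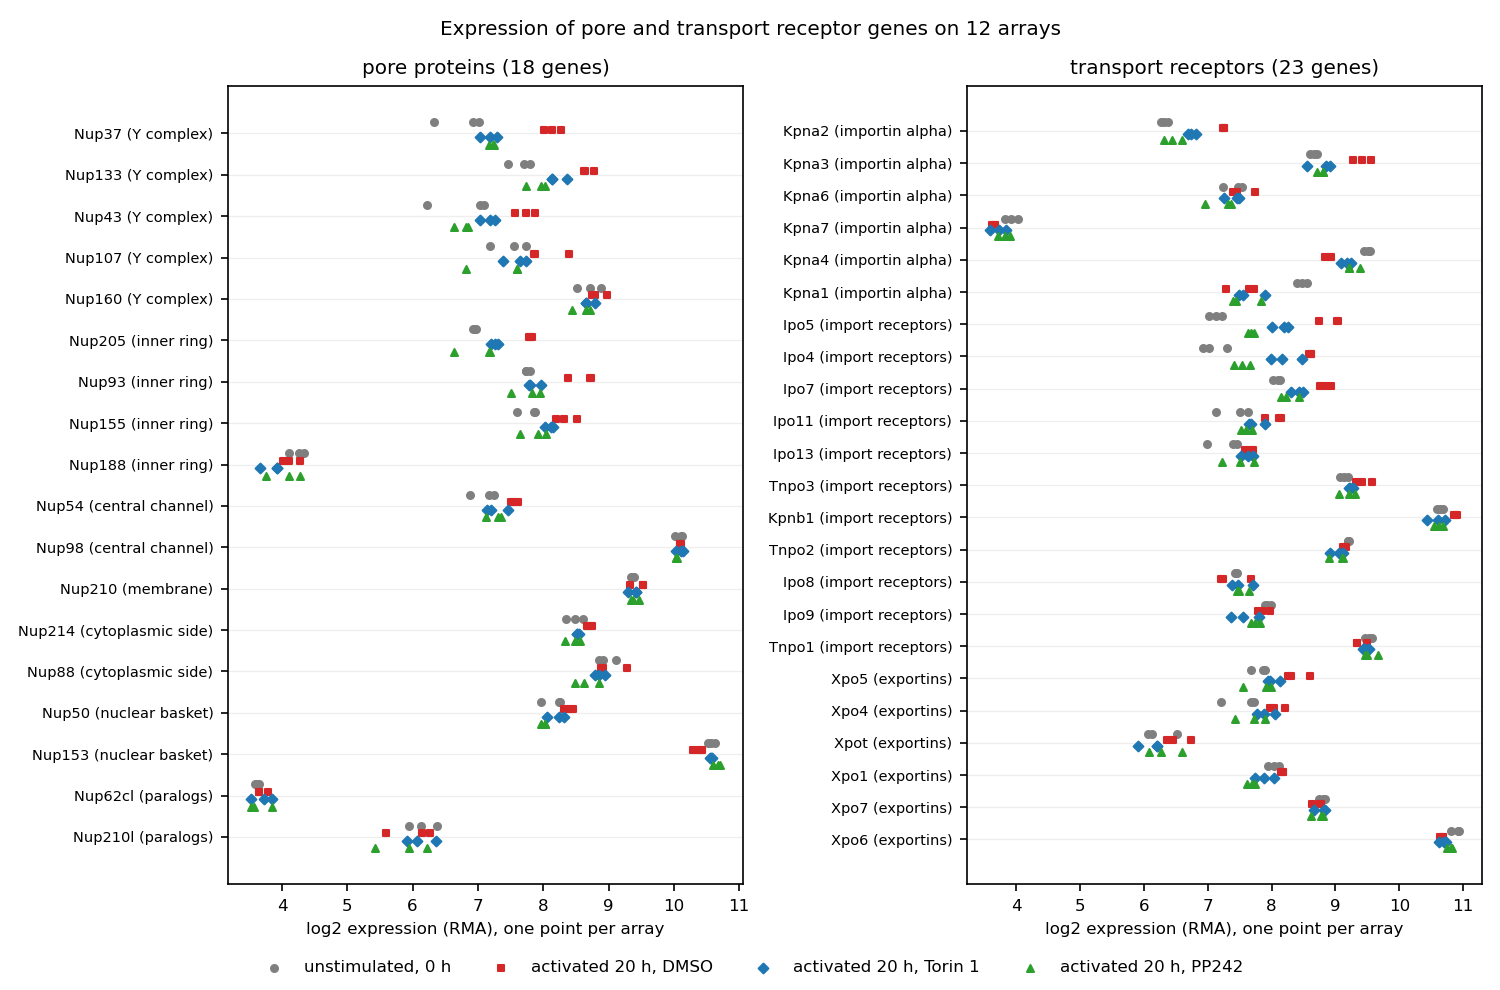
Log2 expression (RMA) of the 18 pore protein genes and the 23 transport receptor genes, with 1 point per array, 3 arrays per group and the role of each gene in brackets. For Nup37, Ipo5 and Kpna2 the 3 DMSO arrays lie above all 9 others, while for Kpna1 and Kpna4 the 3 unstimulated arrays lie above all others.

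In cTreg cells activated with DMSO, 16 of the 41 genes rose against unstimulated cells, 2 fell and 23 were not called. Over all genes 23.9% were called in this comparison, 11.8% higher and 12.1% lower. By class, 7 of 18 pore genes rose and none fell, while 9 of 23 receptor genes rose and 2 fell. The median change was 0.23 for pore genes and 0.25 for receptor genes, beside -0.035 for all genes. The classes were close in their share of rises (38.9% and 39.1%), and the difference between them was not tested. Without unstimulated array 1 the median of the pore genes was 0.15. The 3 DMSO arrays lay above the 3 unstimulated arrays for 22 of the 41 genes and below them for 6, beside 17.4% and 21.1% of all genes.

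Among the pore proteins the rises lay in the 2 rings of the scaffold and in 1 channel gene. The Y complex and the inner ring each had 3 genes that rose, of 5 and of 4. Nup37, a small subunit at the edge of the Y complex, read 6.33, 6.93 and 7.02 on the unstimulated arrays and 8.14, 8.27 and 8.01 with DMSO. All 3 DMSO arrays were above all 3 unstimulated arrays, and unstimulated array 1 was the lowest. The change was 1.38 (SE 0.15, 2.61-fold, adjusted p = 1.64e-05), and it ran from 1.17 to 1.51 when each array was left out in turn. Nup43, another subunit at the edge of the Y complex, read 6.22, 7.09 and 7.03 before and 7.88, 7.57 and 7.73 after activation. Here too unstimulated array 1 stood well below the other 2, and the groups did not overlap. Its change was 0.95 (SE 0.18, adjusted p = 0.00172), with a range of 0.67 to 1.1 over the fits without 1 array.

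Nup133, at the stem of the Y complex, had unstimulated values of 7.46, 7.79 and 7.7 and DMSO values of 8.78, 8.64 and 8.62. The gap between the groups was wider than the spread inside either one, and Nup133 rose by 1.03 (SE 0.12, 2.05-fold, adjusted p = 2.05e-05). Nup107, for which the complex is also named, read 7.19, 7.55 and 7.74 before and 8.39, 7.88 and 7.86 after activation. These arrays did not overlap either, but the spread was large and the change of 0.55 (SE 0.21) had an adjusted p of 0.0763. Nup160, the largest subunit of the Y complex, overlapped between the groups and had a difference of 0.14 (SE 0.12, 95% confidence interval -0.12 to 0.39, adjusted p = 0.458).

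In the inner ring, Nup205, one of its large scaffold proteins, was tightly measured. It read 6.95, 6.97 and 6.92 in unstimulated cells and 7.82, 7.78 and 7.8 with DMSO, a change of 0.85 (SE 0.13, adjusted p = 0.000217). Nup93, the adaptor that holds the inner ring together, read 7.74, 7.74 and 7.79 and then 8.73, 8.72 and 8.38, also a change of 0.85 (SE 0.13, adjusted p = 0.000227). Both genes showed no overlap, with DMSO array 3 the lowest of its group for Nup93. Nup155, which ties the inner ring to the membrane, rose by 0.57 (SE 0.13, adjusted p = 0.00386). In the channel, Nup54 rose by 0.45 (SE 0.12, adjusted p = 0.0142), and its adjusted p was 0.0708 without unstimulated array 1.

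The other pore genes did not pass the test. Nup98, a channel protein that also works in mRNA export, read between 10.02 and 10.12 in unstimulated cells and 10.1 to 10.11 with DMSO, a difference of 0.02 (SE 0.09, interval -0.16 to 0.2). Nup210, the membrane glycoprotein of the pore, differed by 0.08 (SE 0.09, interval -0.12 to 0.28). Both intervals end below the change of Nup54, the smallest of the 7 rises, and for both genes the arrays of the groups overlapped. Nup214 and Nup88, which form a docking site on the cytoplasmic side, had values of 0.23 (adjusted p = 0.12) and 0.07 (adjusted p = 0.738). Of the basket proteins, Nup153, the anchor of the basket, read 10.57, 10.52 and 10.63 and then 10.38, 10.43 and 10.29, so its 3 DMSO arrays were the lower ones, but the difference of -0.21 (SE 0.09) had an adjusted p of 0.109. Nup50, which binds importin alpha at the basket, differed by 0.23 (adjusted p = 0.135). The paralogs Nup62cl and Nup210l, with differences of 0.08 and -0.16, were not called either.

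**Figure D2:**
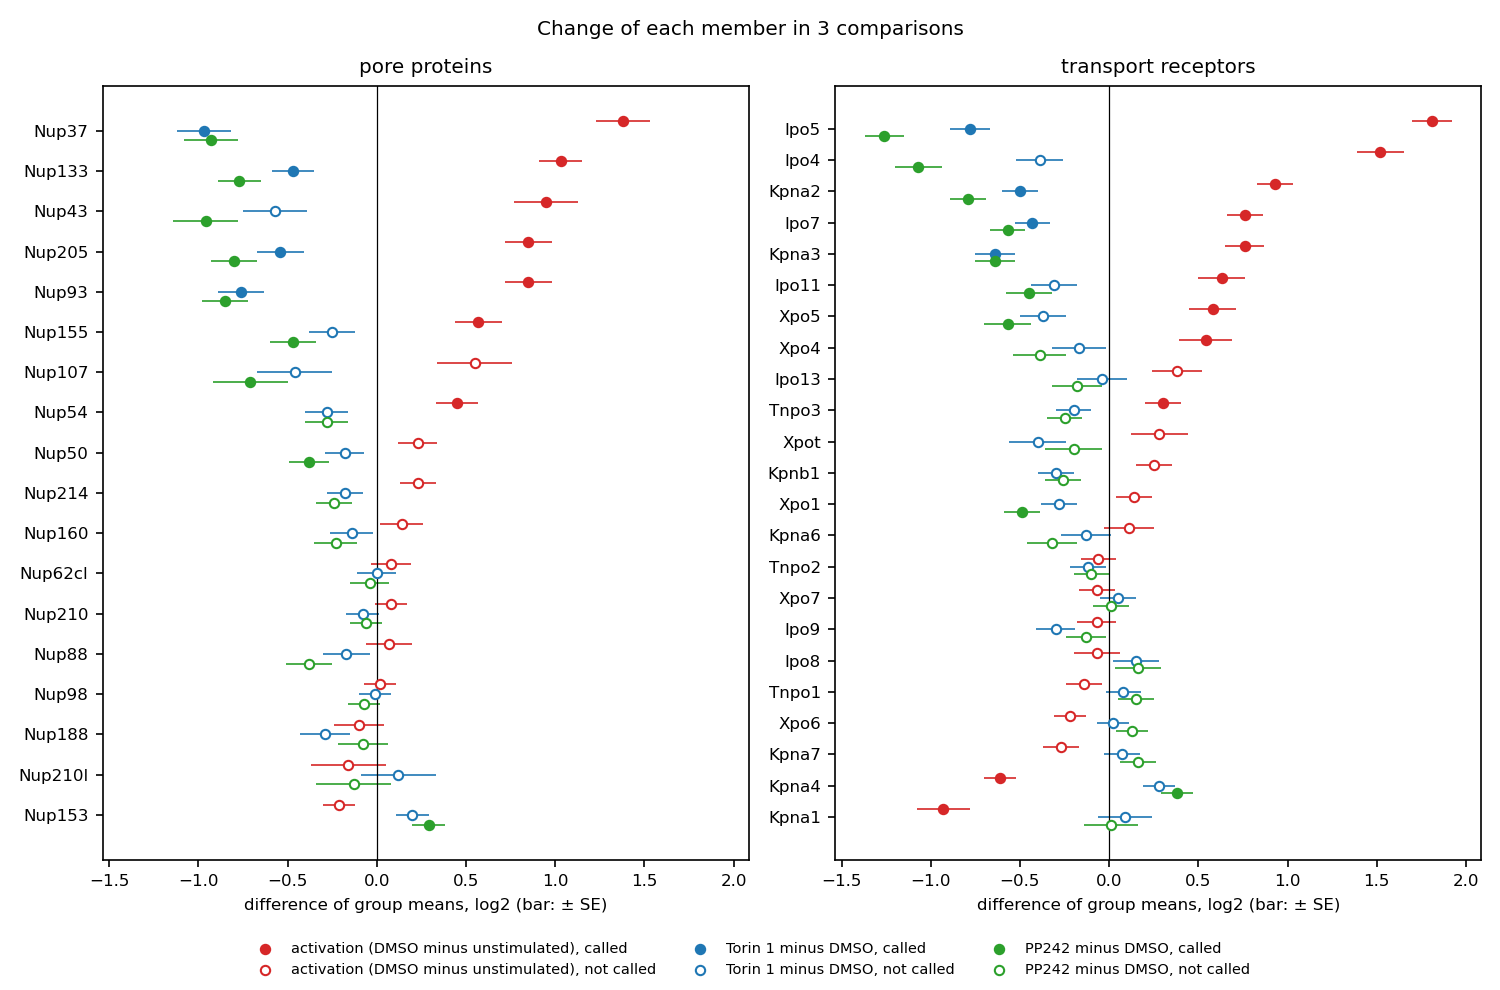
Differences of group means on the log2 scale (bar: SE) for each gene in activation, Torin 1 against DMSO and PP242 against DMSO. Genes are sorted by their change on activation, and filled points mark calls at an adjusted p under 0.05. The differences share the DMSO arrays, so a low or high DMSO array moves all of them.

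Among the transport receptors, the importins of the beta family held the largest rises, with 5 of 11 higher and none lower. Ipo5, which brings ribosomal proteins and histones into the nucleus, read 7.12, 7.22 and 7.02 in unstimulated cells and 9.02, 9.04 and 8.74 with DMSO. Its groups lay far apart, and the change of 1.81 (SE 0.11, 3.52-fold, adjusted p = 8.6e-08) was the largest of the 41 genes. Ipo4, an importer of histones, read 6.92, 7.3 and 7.01 and then 8.61, 8.62 and 8.59, a rise of 1.52 (SE 0.13, 2.88-fold, adjusted p = 2.27e-06). The DMSO arrays agreed closely for this gene. A second row of Ipo4 (transcript cluster 17306753) did not share the rise, with means of 7.32 unstimulated and 7.1 with DMSO and a difference of -0.23 (adjusted p = 0.541 in a fit of all rows). The change of Ipo4 thus rests on 1 of its 2 rows.

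Ipo7, another carrier of ribosomal proteins and of linker histone, had unstimulated values of 8.13, 8.02 and 8.1 and DMSO values of 8.93, 8.75 and 8.84. It rose by 0.76 (SE 0.1, adjusted p = 9.79e-05), with no overlap. Ipo11 rose by 0.63 (SE 0.13, adjusted p = 0.00291). Tnpo3, the importer of SR splicing factors, changed by 0.3 (SE 0.1, adjusted p = 0.0428). That call was kept in 3 of 12 fits that left out 1 array: it was lost without unstimulated array 1, 2 or 3, DMSO array 2 or 3, any Torin 1 array or PP242 array 2, at adjusted p from 0.0525 to 0.153.

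Importin beta itself, Kpnb1, read 10.59, 10.69 and 10.64 before and 10.9, 10.86 and 10.89 after activation. All 3 DMSO arrays were higher, but the difference was small at 0.25 (SE 0.1) and its adjusted p was 0.0827. Kpnb1 has 2 other rows of its own, and one of them (transcript cluster 17268469) had means of 9.2 and 9.67, a difference of 0.46 (adjusted p = 0.00406 in the fit of all rows). The other (transcript cluster 17255755), with a mean of 5.12 over the 12 arrays, differed by 0.04 (adjusted p = 0.864). With the median over the rows of each gene, Kpnb1 was called higher. For Kpnb1 that median is transcript cluster 17268469, the middle row, so the call repeats that row. Against DMSO, in the fit of all rows, the row used differed by -0.3 with Torin 1 (adjusted p = 0.114) and -0.26 with PP242 (adjusted p = 0.103). Transcript cluster 17268469 differed by -0.33 (adjusted p = 0.0683) and -0.47 (adjusted p = 0.00593). Transcript cluster 17255755 differed by -0.09 (adjusted p = 0.771) and -0.11 (adjusted p = 0.625). With the median over rows, again transcript cluster 17268469, Kpnb1 was called lower with both inhibitors. Tnpo1 and Tnpo2, carriers of RNA-binding proteins such as hnRNP A1, had differences of -0.14 (SE 0.1, adjusted p = 0.343) and -0.06 (SE 0.1, adjusted p = 0.725). Ipo8 and Ipo9 both had differences of -0.07 (adjusted p = 0.768 and 0.727), and Ipo13 one of 0.38 (adjusted p = 0.0697).

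Of the 6 exportins, 2 rose and none fell. Xpo5, which carries microRNA precursors out of the nucleus, read 7.67, 7.86 and 7.89 and then 8.6, 8.31 and 8.25, a change of 0.58 (SE 0.13, adjusted p = 0.00518) without overlap. Xpo4 changed by 0.54 (SE 0.15, adjusted p = 0.0188), and its adjusted p was 0.0939 without unstimulated array 3 and 0.0728 without DMSO array 2. Xpo1, the main exporter of proteins with a leucine-rich signal, read 7.94, 8.12 and 8.03 in unstimulated cells and 8.15, 8.17 and 8.18 with DMSO. Its DMSO arrays were just above the others, and the difference of 0.14 (SE 0.1, interval -0.08 to 0.35) was not called (adjusted p = 0.364). Xpot, which exports tRNA, overlapped between the groups and differed by 0.28 (SE 0.16, adjusted p = 0.239). Xpo7 and Xpo6, the latter an exporter of actin, differed by -0.07 (adjusted p = 0.661) and -0.22 (adjusted p = 0.0899).

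The importin alpha genes moved in both directions. They encode the adaptors that hold the classical nuclear localization signal of a cargo and link it to importin beta. Kpna2, the form known for its level in dividing cells, read 6.31, 6.37 and 6.26 in unstimulated cells and 7.23, 7.25 and 7.26 with DMSO. The arrays of each group agreed closely, and Kpna2 rose by 0.93 (SE 0.1, 1.91-fold, adjusted p = 9.65e-06). Kpna3 read 8.6, 8.67 and 8.71 and then 9.56, 9.41 and 9.28, a rise of 0.76 (SE 0.11, adjusted p = 0.000208). Kpna4, the closest relative of Kpna3 and like it a carrier of NF-kappaB, went the other way.

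Kpna4 read 9.54, 9.45 and 9.51 in unstimulated cells and 8.93, 8.91 and 8.83 with DMSO. Every DMSO array was below every unstimulated array, and the change was -0.61 (SE 0.09, 1.53-fold lower, adjusted p = 0.000235). Kpna1, another of these adaptors, read 8.39, 8.48 and 8.56 and then 7.73, 7.64 and 7.28. DMSO array 3 was the lowest, and the change was -0.93 (SE 0.15, 1.9-fold lower, adjusted p = 0.000415). Kpna6, of the same subfamily as Kpna1, overlapped between the groups and had a difference of 0.11 (SE 0.14, interval -0.18 to 0.41). Kpna7, known from oocytes, was dim in all groups and differed by -0.27 (adjusted p = 0.0676). Of the 6 genes, 2 rose, 2 fell and 2 were not called, and the calls of Kpna1, Kpna2, Kpna3 and Kpna4 were kept in all 12 fits without 1 array.

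**Figure D3:**
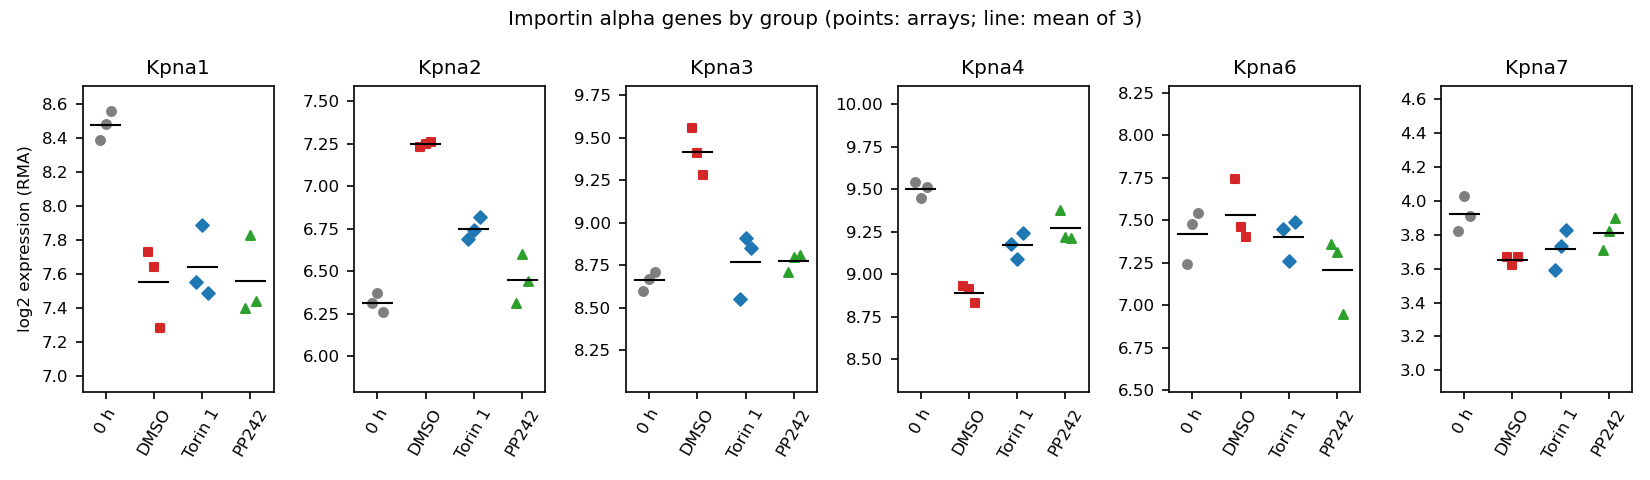
Log2 expression (RMA) of the 6 importin alpha genes by group, with 1 point per array and a line at the mean of 3. The panels have axes of equal length that start at different levels. Kpna2 and Kpna3 rise and Kpna1 and Kpna4 fall on activation, and Kpna1 stays low with both inhibitors.

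With Torin 1, 8 of the 41 genes were lower than with DMSO and none was higher, beside 8.12% of all genes called (3.33% higher and 4.79% lower). The lower genes were 4 of 18 pore genes and 4 of 23 receptor genes, 22.2% and 17.4%. The median change was -0.22 for pore genes and -0.2 for receptor genes, and 0.013 for all genes. This comparison uses the same DMSO arrays as the comparison on activation, so the values of both are given side by side and their agreement is not counted. The 3 Torin 1 arrays lay below the 3 DMSO arrays for 22 genes and above them for 2, beside 12.3% of all genes in each direction.

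Nup37 read 7.03, 7.29 and 7.19 with Torin 1, under all DMSO arrays, a change of -0.97 (SE 0.15, 1.96-fold lower, adjusted p = 0.00176). Nup93 read 7.8, 7.78 and 7.96, close to its unstimulated values, a change of -0.76 (SE 0.13, adjusted p = 0.00271). Both calls were kept in all 12 fits that left out 1 array. For Nup205 the Torin 1 arrays read 7.26, 7.2 and 7.31, between the unstimulated and the DMSO arrays, and the change was -0.54 (SE 0.13, adjusted p = 0.0189). For Nup133 they read 8.14, 8.36 and 8.14, again between the other 2 groups, with a change of -0.47 (SE 0.12, adjusted p = 0.0259).

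These last 2 calls were the less firm ones. Nup205 missed the threshold without DMSO array 1, 2 or 3 or Torin 1 array 1 or 2 (adjusted p 0.0506 to 0.063), and Nup133 without DMSO array 1 or 2 or Torin 1 array 1 or 3 (adjusted p 0.0583 to 0.0967). The count of lower pore genes was therefore 2 without DMSO array 1, without DMSO array 2 or without Torin 1 array 1. Nup43 differed by -0.57 (SE 0.18, adjusted p = 0.078) and Nup155 by -0.25 (SE 0.13, adjusted p = 0.29), neither of them called.

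Of the receptors, Ipo5 read 8.25, 8.19 and 8.01 with Torin 1, a change of -0.78 against DMSO (SE 0.11, 1.72-fold lower, adjusted p = 0.000772). It stood midway, below all DMSO arrays and above all unstimulated ones, from which it differed by 1.03 (SE 0.11, adjusted p = 5.83e-05). Kpna3 read 8.55, 8.91 and 8.85, near its unstimulated level, a change of -0.64 (SE 0.11, adjusted p = 0.00325). Kpna2 read 6.69, 6.74 and 6.82, between the 2 other groups, a change of -0.5 (SE 0.1, adjusted p = 0.00653).

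Ipo7 read 8.49, 8.43 and 8.31, a change of -0.43 (SE 0.1, adjusted p = 0.0204), which missed the threshold without DMSO array 1 or 3 or Torin 1 array 2 or 3 (adjusted p 0.0502 to 0.079). Ipo4, with 8.16, 7.99 and 8.48, was below all DMSO arrays but differed from them by only -0.39 (SE 0.13, adjusted p = 0.0926). Kpna4 was above all DMSO arrays, with a difference of 0.28 (SE 0.09, adjusted p = 0.0816). Kpna1 differed by 0.09 (SE 0.15, interval -0.23 to 0.42), and the arrays overlapped.

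With PP242, 16 of the 41 genes were lower and 2 were higher than with DMSO, beside 16.7% of all genes called (7.38% higher and 9.27% lower). Of the pore genes 8 of 18 fell and 1 rose, and of the receptor genes 8 of 23 fell and 1 rose. The median change was -0.33 for pore genes and -0.25 for receptor genes, and 0.012 for all genes. In this comparison 44.4% of the pore genes and 34.8% of the receptor genes fell, and the difference between the classes was not tested. The 3 PP242 arrays lay below the 3 DMSO arrays for 25 genes and above them for 4, beside 15.3% and 15% of all genes.

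Within the Y complex 4 of 5 genes fell, and in the inner ring 3 of 4. Nup43 read 6.85, 6.82 and 6.64 with PP242, a change of -0.96 (SE 0.18, adjusted p = 0.0025). Nup37, with 7.17, 7.23 and 7.24, fell by 0.93 (SE 0.15, adjusted p = 0.000861). Both were below all DMSO arrays. Nup93, with 7.95, 7.82 and 7.5, fell by 0.85 (SE 0.13, adjusted p = 0.00044), and Nup133, with 7.96, 8.03 and 7.74, by 0.77 (SE 0.12, adjusted p = 0.000467). Nup205 read 7.19, 7.17 and 6.64 and fell by 0.8 (SE 0.13, adjusted p = 0.000659), with PP242 array 3 well below the other 2.

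Array 3 of PP242 was also the lowest of its group for Nup107, which read 7.59, 7.59 and 6.82 and fell by 0.71 (SE 0.21, adjusted p = 0.0324). Without that array the change of Nup107 was -0.45 (adjusted p = 0.136), and without DMSO array 1 it was -0.54 (adjusted p = 0.133). Relative to each gene's mean over the 12 arrays, the median pore gene stood at -0.21 on PP242 array 3 and at -0.05 and -0.07 on PP242 arrays 1 and 2, and unstimulated array 1 was also at -0.21. Nup155 fell by 0.47 (SE 0.13, adjusted p = 0.0183), with an adjusted p of 0.0826 without DMSO array 2 and 0.0806 without PP242 array 3.

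The basket genes moved apart. Nup50 fell by 0.38 (SE 0.11, adjusted p = 0.024), while Nup153 read 10.7, 10.68 and 10.6 with PP242, above all DMSO arrays, and rose by 0.29 (SE 0.09, adjusted p = 0.0353). Both changes were small. Without DMSO array 1 or 3 or PP242 array 1 or 2 neither was called, at adjusted p from 0.0584 to 0.0755 for Nup50 and from 0.0717 to 0.112 for Nup153. Nup153 also lost its call when each array was centred on its median. Nup98 had a difference of -0.07 (SE 0.09, interval -0.25 to 0.12) and Nup210 one of -0.06 (SE 0.09, interval -0.26 to 0.15), and neither was called.

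Ipo5 and Ipo4 had the largest falls of all 41 genes. Ipo5 read 7.73, 7.63 and 7.67 with PP242, a change of -1.26 (SE 0.11, 2.39-fold lower, adjusted p = 6.73e-06). Ipo4 read 7.66, 7.54 and 7.41, a change of -1.07 (SE 0.13, 2.09-fold lower, adjusted p = 0.000108), which its second row again did not share (0.08, adjusted p = 0.874). Both genes were still above every unstimulated array. Kpna2 read 6.31, 6.6 and 6.44 and fell by 0.79 (SE 0.1, adjusted p = 9.4e-05), and Kpna3 read 8.71, 8.8 and 8.81 and fell by 0.64 (SE 0.11, adjusted p = 0.0013). The PP242 values of Kpna2 overlapped with those of unstimulated cells.

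Ipo7 fell by 0.57 (SE 0.1, adjusted p = 0.00158), Xpo5 by 0.57 (SE 0.13, adjusted p = 0.00839) and Ipo11 by 0.45 (SE 0.13, adjusted p = 0.0308). The call of Ipo11 was lost without DMSO array 1 or 2 or PP242 array 1 or 2, at adjusted p from 0.075 to 0.108. Xpo1 read 7.74, 7.69 and 7.61, below all arrays of the DMSO and the unstimulated group. It fell by 0.49 against DMSO (SE 0.1, adjusted p = 0.00391), although it had not been called on activation, and its difference from unstimulated cells was -0.35 (SE 0.1, adjusted p = 0.0901). With Torin 1 the difference of Xpo1 from DMSO was -0.28 (SE 0.1, adjusted p = 0.116).

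The 2 importin alpha genes that fell on activation were Kpna4 and Kpna1, and the difference between them was not tested. Kpna4 read 9.38, 9.22 and 9.21 with PP242 and rose by 0.38 against DMSO (SE 0.09, adjusted p = 0.011). That value was 0.0541 without PP242 array 1. Kpna1 read 7.4, 7.83 and 7.44 with PP242 and 7.55, 7.89 and 7.49 with Torin 1, overlapping with the DMSO arrays. Its difference between PP242 and DMSO was 0.01 (SE 0.15, interval -0.32 to 0.33). Against unstimulated cells Kpna1 had a change of -0.92 with PP242 (SE 0.15, adjusted p = 0.00344) and of -0.84 with Torin 1 (SE 0.15, adjusted p = 0.00324), and both calls were kept in all 12 fits without 1 array.

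The inhibitor groups were also compared with unstimulated cells. A gene not called here need not have returned to the resting level. With Torin 1, 4 of the 41 genes were higher than in unstimulated cells and 2 were lower, beside 7.73% of all genes called (4.42% higher and 3.31% lower). The higher ones were Ipo4 (1.13, SE 0.13, adjusted p = 0.000132), Ipo5, Nup133 (0.57, SE 0.12, adjusted p = 0.00845) and Kpna2 (0.44, SE 0.1, adjusted p = 0.0131). The second row of Ipo4 did not share its rise, with means of 7.32 in unstimulated cells and 7.07 with Torin 1. Kpna1 and Kpna4 were lower, Kpna4 by a change of -0.33 (SE 0.09, adjusted p = 0.0449). The call of Kpna2 was lost without unstimulated array 3 or Torin 1 array 3 (adjusted p 0.0546 and 0.0568), and that of Kpna4 was lost in 10 of 12 fits without 1 array, all but those without PP242 array 1 or 3 (adjusted p 0.0505 to 0.144). With PP242, Ipo5 was higher (0.56, SE 0.11, adjusted p = 0.013) and Kpna1 was lower, beside 3.07% of all genes called (1.73% higher and 1.34% lower). The adjusted p of Ipo5 was 0.0687 without unstimulated array 3. Nup37 (0.45, interval 0.12 to 0.78, adjusted p = 0.171) and Ipo4 (0.46, interval 0.17 to 0.74, adjusted p = 0.096) were not called, with all PP242 arrays above all unstimulated ones. The 3 Torin 1 arrays lay above the 3 unstimulated arrays for 13 genes and below them for 6, beside 12.6% and 15.3% of all genes. The 3 PP242 arrays lay above the 3 unstimulated arrays for 5 genes and below them for 5, beside 8% and 10.8% of all genes. The median change against unstimulated cells was 0.07 for pore genes and -0.02 for receptor genes with Torin 1, and 0 and 0.01 with PP242. That of all genes was -0.021 and -0.019.

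PP242 and Torin 1 were also compared with each other, for all 41 genes. The doses differ by design, so the comparison is between these 2 treatments and not between the compounds at a matched dose. One gene was called, beside 0.392% of all genes (0.162% higher and 0.23% lower with PP242). This was Ipo4, which was lower with PP242 by a change of -0.67 (SE 0.13, interval -0.96 to -0.39, adjusted p = 0.0484), with all 3 PP242 arrays below all 3 Torin 1 arrays. The second row of Ipo4 did not share this fall, with means of 7.07 with Torin 1 and 7.18 with PP242. The call stood in 1 of 12 fits that left out 1 array, the one without unstimulated array 2. Without each of the others, that is unstimulated array 1 or 3 or any DMSO, Torin 1 or PP242 array, the adjusted p ran from 0.0595 to 0.156.

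Ipo5 (-0.47, SE 0.11, interval -0.71 to -0.24), Kpna2 (-0.3, SE 0.1, interval -0.51 to -0.09) and Nup133 (-0.3, SE 0.12, interval -0.56 to -0.05) also had lower values on every PP242 array than on any Torin 1 array, and their adjusted p were 0.0932, 0.224 and 0.313. The PP242 arrays were also all below the Torin 1 arrays for Nup43 (-0.39, SE 0.18, interval -0.78 to 0.01, adjusted p = 0.426), Nup205 (-0.26, SE 0.13, interval -0.54 to 0.01, adjusted p = 0.438) and Nup50 (-0.2, SE 0.11, interval -0.43 to 0.03, adjusted p = 0.498). Among the smaller differences were values of 0.04 for Nup37 (interval -0.29 to 0.37), 0 for Kpna3 (interval -0.24 to 0.24) and -0.09 for Nup93 (interval -0.36 to 0.19). The 3 PP242 arrays lay below the 3 Torin 1 arrays for 7 genes and above them for 2, beside 9.1% and 7.89% of all genes. The median difference was -0.09 for pore genes and -0.05 for receptor genes, and -0.005 for all genes.

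**Figure D4:**
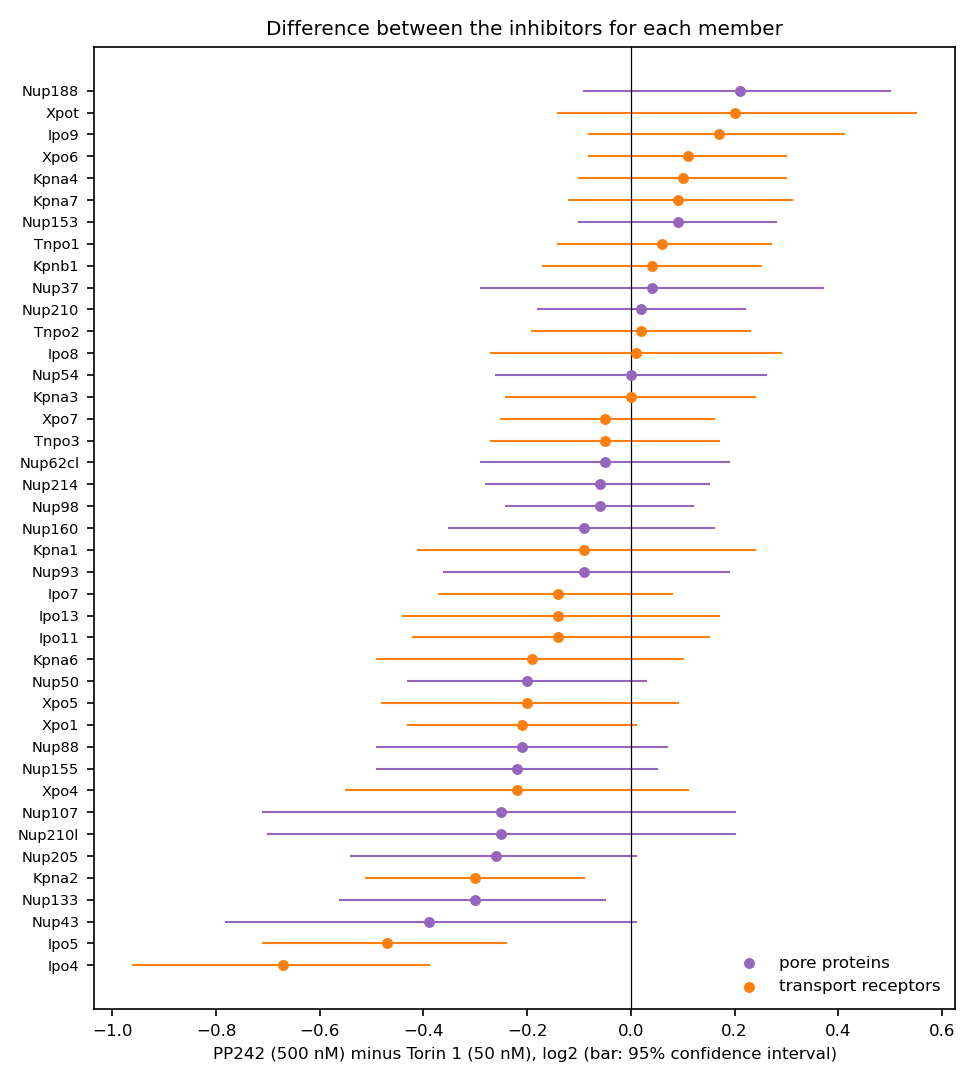
PP242 (500 nM) minus Torin 1 (50 nM) for each of the 41 genes, as the log2 difference of group means with its 95% confidence interval, sorted by the difference. Ipo4, Ipo5, Nup43, Nup133 and Kpna2 lie lowest. The intervals of Ipo4, Ipo5, Nup133 and Kpna2 lie below 0, and those of all other genes, Nup43 among them, span 0.

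Nucleoporins with other names and genes of the Ran cycle were counted beside the same all-gene shares. Of 10 other nucleoporins measured, 5 rose on activation and none fell, beside 11.8% of all genes higher and 12.1% lower. With Torin 1 4 of the 10 fell and with PP242 5, with none higher, beside 4.79% and 9.27% of all genes lower. Ndc1, a membrane protein that anchors the pore, changed by 1.08 on activation (SE 0.12, adjusted p = 1.85e-05), by -0.49 with Torin 1 (adjusted p = 0.0234) and by -0.81 with PP242 (adjusted p = 0.000412). Of 8 genes of the Ran cycle and other carriers, 5 rose on activation and none fell, and 3 fell with Torin 1 and 4 with PP242, with none higher. Ran itself changed by 1.53 (SE 0.16, adjusted p = 7.89e-06), -1.02 (adjusted p = 0.00141) and -1.3 (adjusted p = 8.04e-05) in the same order, and Ranbp1, which helps Ran to release its cargo complexes, by 1.43 (SE 0.1, adjusted p = 3.87e-07), -0.75 (adjusted p = 0.000699) and -0.94 (adjusted p = 4.04e-05). Rcc1, the exchange factor that loads Ran with GTP in the nucleus, changed by 0.89, -0.68 and -0.91, all called.

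mRNA leaves the nucleus by a route of its own that does not use Ran, and its genes were called in both directions. Of 16 measured, 6 rose and 3 fell on activation, 1 rose and 2 fell with Torin 1, and 2 rose and 4 fell with PP242. The shares of all genes higher and lower were 11.8% and 12.1%, 3.33% and 4.79%, and 7.38% and 9.27% in the same order, and 1 or 2 genes of 16 are not far from such shares. Nxf1, the main export receptor for mRNA, had a mean of 10.8 in unstimulated cells, 9.88 with DMSO, 10.36 with Torin 1 and 10.4 with PP242. It fell on activation, by 0.92 (SE 0.1, adjusted p = 1.35e-05), and was higher with Torin 1 (0.48, adjusted p = 0.00915) and with PP242 (0.51, adjusted p = 0.0026) than with DMSO. Its small partner Nxt1 rose on activation (0.6, SE 0.14, adjusted p = 0.00472).

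The promoters of the members were searched for 3 motifs, since part of the family moved together. RefSeq windows of GRCm38.p6, from 250 bases before to 50 after a start site, were found for 34 of the 41 genes. Both strands were searched for the E box CACGTG, to which factors such as Myc bind, for the E2F motifs TTTGGCGC and TTTCCCGC, and for the longer motif of NRF1. No gene held more than 1 kind of motif. The E box was found in 7 of 34 genes (Ipo4, Ipo7, Nup54, Nup93, Nup188, Tnpo2 and Xpot), 20.6%, beside 8.09% of the 27025 genes with a window. It was in 4 of the 13 genes with a window that rose on activation and in 3 of the other 21, of which Nup188 was read from its dim row. The NRF1 motif was in 3 genes (Nup107, Nup50, Xpo5), 8.82% beside 1.07%, and an E2F motif in 1 (Nup210), 2.94% beside 1.8%. These are matches of letters and do not show that a factor binds.

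The stretches printed here are E boxes of 3 genes that rose on activation (Nup93, Ipo7, Nup54) and of 2 genes with 2 E boxes each that were not called (Nup188, Tnpo2; the Nup188 row is dim, and a row it shares with Phyhd1 was called higher), followed by NRF1 motifs of Xpo5, which rose, and Nup50, which was not called. Each runs 5′ to 3′ along the strand of its gene, and capitals mark the motif.
Nup93, chr8:94214347-94214436, plus strand: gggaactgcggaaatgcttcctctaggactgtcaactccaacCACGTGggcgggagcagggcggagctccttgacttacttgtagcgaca
Ipo7, chr7:110018136-110018225, plus strand: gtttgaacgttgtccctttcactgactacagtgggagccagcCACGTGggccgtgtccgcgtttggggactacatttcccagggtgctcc
Nup54, chr5:92435252-92435341, minus strand: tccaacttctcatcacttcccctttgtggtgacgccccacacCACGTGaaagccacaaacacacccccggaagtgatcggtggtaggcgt
Nup188, chr2:30286329-30286418, plus strand: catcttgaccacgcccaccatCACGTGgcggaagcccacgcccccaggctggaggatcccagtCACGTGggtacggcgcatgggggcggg
Tnpo2, chr8:85036715-85036804, plus strand: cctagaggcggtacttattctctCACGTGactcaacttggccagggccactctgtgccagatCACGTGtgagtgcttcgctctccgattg
Xpo5, chr17:46202697-46202786, plus strand: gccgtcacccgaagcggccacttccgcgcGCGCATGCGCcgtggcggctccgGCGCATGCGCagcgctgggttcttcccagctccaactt
Nup50, chr15:84923252-84923341, plus strand: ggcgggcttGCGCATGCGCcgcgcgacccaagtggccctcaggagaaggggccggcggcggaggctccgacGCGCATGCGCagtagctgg
The E box of Nup93 begins 175 bases before the start site, that of Ipo7 137 and that of Nup54 100 bases before it. Tnpo2, with its pair of E boxes, had a change of -0.06 on activation, and Nup93 with 1 had a change of 0.85. Whether the number of E boxes bears on the change was not tested.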

How the data were processed

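RNA of 12 samples was amplified with the WT Pico protocol and hybridised to GeneChip Mouse Gene 2.0 ST arrays. The authors made the deposited log2 values with RMA, which corrects background, quantile normalizes the arrays and sums up probes. The submitters' notes name Partek 6.6, and the methods of the study name an ANOVA of the triplicates. Quantile normalization sets the arrays to nearly the same distribution, so a change in total RNA per cell does not show. The sources used here do not give the genome build of the transcript clusters.

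Of 41345 rows, 23521 carried 1 gene symbol, 1820 several and 16004 none. Rows with 1 symbol were used, at the highest mean for the 1082 genes with several rows, which left 22180 genes. limma 3.58.1 in R 4.3.3 (lmFit and eBayes, 4 group means, no replicate block) gave 6 comparisons, with Benjamini-Hochberg adjustment over all genes and calls under 0.05. The fit was tested on simulated data. No filter was applied, and a gene is called dim where its mean lies under 4.65, the level of the 40th percentile of gene means, in all groups. Of the 41 members, 38 were above it in at least 1 group. The number of arrays limits the precision. Columns of all 12 arrays were used, and no pair of them correlated above 0.9936.

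The genes named with values are anchors of the pore and its receptors, the called members with the largest changes in each class and comparison, called members that moved against their class, those called between inhibitors and those whose rows disagree. The other members, also those named beyond this rule, are given to account for all 41. The members and lists were chosen with earlier results of these data known. Promoter windows were read from RefSeq with Python 3.11.15. Alternatives were quantile normalization, centring, a filter on dim genes, the median over rows, all rows, other empirical Bayes settings, array weights, only the 2 groups compared, the replicate number as a block, thresholds of 0.01 and 0.1, and leaving out each array in turn.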

Additional observations from a re-analysis of the deposited data

How the results depend on the processing

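Of the calls of members, 15 of 18 on activation, 5 of 8 with Torin 1 and 12 of 18 with PP242 were kept in all 12 fits that left out 1 array. Over these fits the called pore and receptor genes numbered 6 to 8 and 9 to 11 on activation, 2 to 5 and 3 to 4 with Torin 1 against DMSO, and 6 to 9 and 7 to 9 with PP242. For Torin 1 against unstimulated cells they numbered 1 to 2 and 3 to 5, for PP242 against unstimulated cells 0 and 1 to 2, and for PP242 against Torin 1 0 and 0 to 1. At thresholds of 0.01 and 0.1 several counts moved: Torin 1 called 2 pore genes at 0.01 and 7 receptor genes at 0.1, PP242 called 5 pore genes at 0.01, Torin 1 against unstimulated cells 3 receptor genes at 0.01 and 2 pore genes at 0.1, and PP242 against unstimulated cells 1 receptor gene at 0.01 and 4 at 0.1. With all rows in the fit, where more rows enter the adjustment, Torin 1 called 2 pore genes. With trend and robust settings 8 receptor genes were called for Torin 1 against unstimulated cells and 2 for PP242 against Torin 1, where the threshold of 0.1 also gave 2. In that last comparison the call of Ipo4 was lost, leaving 0, with quantile normalization, centring, array weights, the median over rows, all rows, only the 2 groups in the fit, the replicate block, an ordinary linear model and the threshold of 0.01. The cause was not tested. The median changes of both classes in activation and in either inhibitor against DMSO kept their sign in every alternative run.

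Samples with the same replicate number did not deviate together (correlations of -0.072 to 0.059 over 18 pairs, none over 0.1). These correlations cannot show whether such samples were prepared together, and the main fit used no pairing. With the number as a block, 15 members were higher and 2 lower on activation (Tnpo3 lost), 8 were lower with Torin 1, 1 was higher and 16 were lower with PP242 (Nup153 lost), and 4 were higher and 1 lower with Torin 1 against unstimulated cells (Kpna4 lost).

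Among the named members, signs turned only for differences that were not called. Kpna1 with PP242 was -0.01 after centring and ran from -0.13 to 0.1 without 1 array, and with Torin 1 from -0.04 to 0.18. Nup98 with Torin 1 was 0.02 after quantile normalization and ran from -0.03 to 0.02 without 1 array, and on activation from -0.01 to 0.04. Between the inhibitors Kpna3 was -0.01 after centring, and Kpnb1 was -0.02 after quantile normalization and -0.14 with the median over rows. Without 1 array this difference ran from -0.11 to 0.07 for Kpna3, -0.04 to 0.1 for Kpnb1, -0.22 to 0.04 for Kpna1, -0.38 to 0 for Nup107, -0.02 to 0.05 for Nup210, -0.03 to 0.1 for Nup37 and -0.19 to 0.04 for Nup93.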

Other observations

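Some pore and receptor genes share array rows with other genes, and these rows were not used. Nup85 and Nup62 had only such rows and so were not members. The row shared by Nup85 of the Y complex and Hmgb1, a chromatin protein, had means of 7.49 in unstimulated cells, 8.13 with DMSO, 7.61 with Torin 1 and 7.52 with PP242, and in the fit of all rows it differed by 0.65 on activation (adjusted p = 0.00304), -0.52 with Torin 1 (adjusted p = 0.0358) and -0.61 with PP242 (adjusted p = 0.00669). The row shared by Nup62 of the central channel with Il4i1 and Il4i1b had a change of 0.32 on activation (adjusted p = 0.0402), -0.16 with Torin 1 (adjusted p = 0.438) and -0.31 with PP242 (adjusted p = 0.0609). Nup188 has a dim row of its own, with a mean of 4.06 over the 12 arrays, and a row shared with Phyhd1 with a mean of 9.06. On the shared row the change was 0.56 on activation (adjusted p = 0.00163) and -0.52 with PP242 (adjusted p = 0.00473), beside -0.1 and -0.08 on the row of its own. The row shared by Tnpo3 and Irf5 differed by -0.02 on activation (adjusted p = 0.9), -0.23 with Torin 1 (adjusted p = 0.234) and -0.37 with PP242 (adjusted p = 0.0265). That of Kpnb1 and Gm8738 differed by 0.34 (adjusted p = 0.256), -0.14 (adjusted p = 0.797) and -0.29 (adjusted p = 0.396) in the same order. Which gene of a shared row these values come from was not tested.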
